A study of Saccharomyces cerevisiae with 137 samples.

Results

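The large subunit of the yeast ribosome is built with the help of assembly factors, and 52 genes that encode such factors were followed through a cold shock and a return to warmth. The members were taken from a list of 52 gene symbols for factors of the large (60S) subunit, matched to systematic names, and all 52 were among the 6178 features of the arrays. Each array compared RNA of Saccharomyces cerevisiae after the shift with RNA of the same flask at t0, just before it, and 137 arrays from 30 flasks of 7 strains were used. Cultures in rich medium (YEPD) grew at 30 °C until t0, were held at 13 °C and sampled after 15, 30 and 60 min (t15, t30 and t60), and were then returned to 30 °C and sampled 30 and 60 min later (t90 and t120). Below, "cold" means t15 to t60 and "recovery" means t90 and t120.

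The strains were 6 single-gene deletions and their parent. delCIN5 (20 arrays, 4 flasks) lacks the stress-response regulator Cin5, delGLN3 (20 arrays, 5 flasks) the nitrogen regulator Gln3, and delHAP4 (18 arrays, 4 flasks) the respiratory activator subunit Hap4. delHMO1 (20 arrays, 4 flasks) lacks Hmo1, a high mobility group protein of ribosomal DNA and ribosomal protein genes, delSWI4 (16 arrays, 4 flasks) lacks the cell cycle regulator Swi4, and delZAP1 (20 arrays, 4 flasks) lacks the zinc-responsive activator Zap1. The wild type had 23 arrays from 5 flasks. The deletion strains are in BY4741, as is the wild type except flask 0, which is BY4739. G418 at 200 µg/mL was in the medium of every deletion culture and of no wild-type culture, so the drug and a deletion cannot be told apart. The labels place 2 flasks of a strain on the same day without saying which, and no t15 array of delSWI4 was analysed here.

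New 60S particles start in the nucleolus on the precursor of the large ribosomal RNAs. RNA helicases, methyltransferases and scaffold proteins fold and modify this precursor, the A3 factors prepare the removal of its internal transcribed spacers, and the 5S ribonucleoprotein is added as a unit. GTPases, placeholder proteins that hold the site of a later ribosomal protein, and export factors then bring the particle through the nucleoplasm to the cytoplasm, where the last factors are released. In yeast the genes for these factors are known to be transcribed together as part of the ribosome biogenesis regulon.

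Every value is a score. The authors took the log ratio of each shifted sample to its t0 sample and scaled every array, so a score of 1 is close to 1 scaled median absolute deviation of that array and is not a fold change. The direction is likely, not certain, since it rests on the order of the samples in the titles. Equal amounts of labelled RNA were compared, so a score is relative to the other transcripts of the cells. Fitted means, standard errors (SE) and p-values come from limma with the flask as a random block. A member was called higher or lower at a Benjamini-Hochberg adjusted p below 0.05 over all features measured in at least 2 flasks.

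The arrays measured 5041 to 6158 features and 44 to 52 members each. Wild-type flasks 0 and 1 were on GCAT chips and all other flasks on Ontario chips, and the slides of delHAP4 and of delSWI4 flasks 2 to 4 were not coated. The score of a deleted gene against its own t0 cannot check a deletion, because the gene would be missing on both sides. For each array, the rank correlation over all features was taken with the median profile of its own temperature phase, and of the other phase, in the other strains. It was negative for the own phase, and over 0.1 for the opposite one, on 4 arrays. These were delGLN3 t60 flask 2, delHAP4 t90 flask 4, and delHMO1 t60 and t90 of flask 3, with member medians of −1.30, 2.09, −0.687 and 1.63. The array of delGLN3 t120 flask 1 resembled neither phase (−0.035 with its own and 0.009 with the other) and was kept. In delHMO1 at t15, flasks 3 and 4 carried the same dyes and correlated at r = −0.476 over all features and at r = −0.601 over the members, so the direction of its arrays is not settled. Counts of these strains that moved by over 1.5 times without the 4 arrays are given both ways, and so are medians of delHMO1 with the sign of flask 2 or 4 turned.

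The members were high in the cold and low in recovery. On the 81 cold arrays the median score of the members lay between −1.30 and 2.83, with a middle value of 1.93, and it was above 0 on 79 arrays. The 56 recovery arrays ranged from −2.45 to 2.09 with a middle value of −0.839, and the median was below 0 on 53 of them. Without the 4 arrays named above, the cold arrays lay between 0.470 and 2.83 and the recovery arrays between −2.45 and 0.291. Those 4 arrays were picked by their likeness to the phases over all features, the members included. The gap that is left between the phases may thus be partly set by that choice, and nothing is concluded from it. The median over all features stayed between −0.0514 and 0.0853 on every array.

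**Figure D1:**
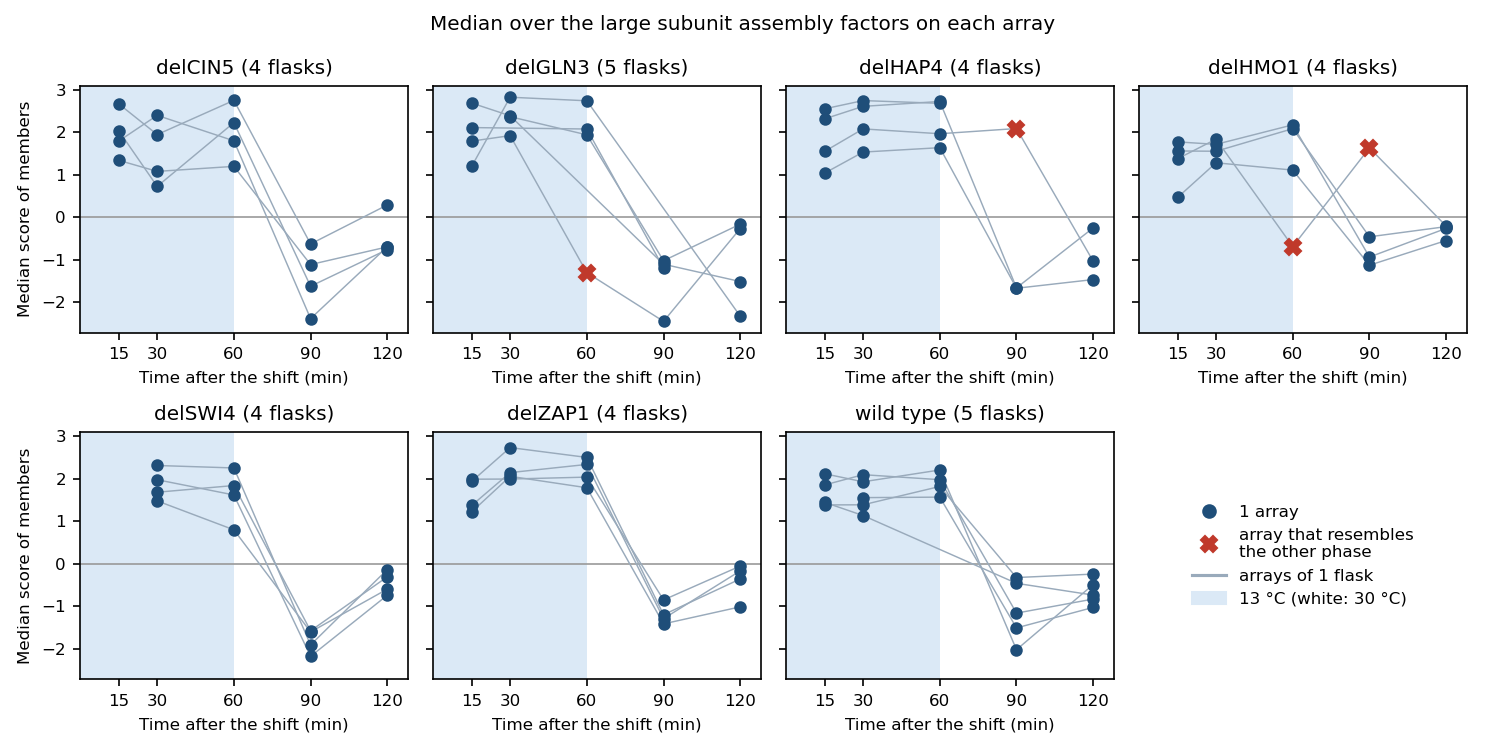
Median score of the 52 members over t0 on each array (vertical axis) against minutes after the shift (horizontal axis), with 1 panel per strain. Points are arrays, lines join the arrays of 1 flask, the blue band marks 13 °C, and crosses mark the 4 arrays that resembled the other phase, which are the only cold points below 0 and the 2 highest recovery points.

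In wild type, 31 of the 52 members were called higher than t0 at t15, 33 at t30 and 36 at t60, and none was called lower. Of all features tested, 7.65%, 9.42% and 9.24% were called higher at these times in ascending order. Called lower were 196 of 6172 features at t15, 351 of 6176 at t30 and 401 of 6172 at t60. The median fitted mean of the members was 1.71 at t15, 1.71 at t30 and 1.89 at t60. For t60 minus t15 limma called 0 members at adjusted p below 0.05 and 0 at an unadjusted p below 0.05, with a median difference of 0.242 and 0.292% of all features called in either direction.

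Of the helicases, 4 of 9 were called higher at t60, with a median of 1.31. They include DBP3, a DEAD-box helicase of early 60S assembly, whose scores in flasks 0 to 3 were 2.45, 3.17, 2.81 and 2.53, a mean of 2.74 ± 0.32 (SD, n = 4, limma adjusted p = 5.22e-05). All 4 flasks lay well above 0 and close together.

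Of the methyltransferases and exonucleases, 3 of 4 were called higher at t60. SPB1, which methylates the 25S rRNA precursor, had scores of 2.82, 2.98, 3.37 and 1.34 in flasks 0 to 3, a mean of 2.63 ± 0.89 (SD, n = 4, limma adjusted p = 0.00254). NOP2, another 25S methyltransferase, averaged 2.27 ± 0.25 (SD, n = 4, adjusted p = 0.00151), and REX4, a putative RNA exonuclease, averaged 2.32 ± 0.83 (SD, n = 4, adjusted p = 0.0025). On the Ontario chips alone SPB1 was no longer called (adjusted p = 0.0848). The exception was RRP8, a methyltransferase of 25S rRNA, described below.

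The early nucleolar scaffold and RNA-binding factors formed the largest role group, and 13 of 18 were called higher at t60 with a median of 1.73. SSF1, a Brix-domain factor, had scores of 2.48, 3.17, 3.15 and 3.11 in flasks 0 to 3, a mean of 2.97 ± 0.33 (SD, n = 4, limma adjusted p = 0.000115). RRP15, a nucleolar factor of early particles, had 1.43, 1.62, 4.07 and 3.41, a mean of 2.63 ± 1.31 (SD, n = 4, adjusted p = 0.000579). For RRP15 the 2 flasks on GCAT chips were low and the 2 on Ontario chips high, whereas SSF1 differed little between flasks.

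Among the NOP7 module and A3 factors, 5 of 6 were called higher at t60, and the median was 2.06. CIC1, which sits at the second internal transcribed spacer, had scores of 3.38, 3.13, 3.82 and 2.13, a mean of 3.12 ± 0.71 (SD, n = 4, limma adjusted p = 2.44e-05). ERB1, the partner of NOP7 in that module, averaged 2.47 ± 0.99 (SD, n = 4, adjusted p = 0.00308), and the member not called was YTM1 (adjusted p = 0.096). Both 5S factors were called: RRS1 averaged 2.25 ± 0.49 and RPF2 2.21 ± 0.90 (SD, n = 4 each; adjusted p = 0.000583 and 0.00156).

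Of the nucleoplasmic and export factors, which act in later steps, 4 of 6 were called higher at t60. NMD3, the adapter for export of the 60S particle, had scores of 2.00, 2.69, 2.93 and 3.14, a mean of 2.69 ± 0.50 (SD, n = 4, limma adjusted p = 0.000142). Of the GTPases, 2 of 4 were called, NOG1 (2.46 ± 1.29, SD, n = 4, adjusted p = 0.00117) and NUG1 (2.06 ± 0.39, SD, n = 4, adjusted p = 0.00585), while LSG1, which acts in the cytoplasm, averaged 1.76 ± 0.60 and was not called (adjusted p = 0.0746). All 3 placeholders and release factors were called.

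RLP24, which holds the place of ribosomal protein Rpl24, had the highest mean of all members. Its scores were 2.51, 3.07, 3.42 and 4.10 in flasks 0 to 3, a mean of 3.27 ± 0.67 (SD, n = 4, limma adjusted p = 0.000215). MRT4, which holds the place of the stalk protein P0, had 2.49, 2.13, 3.22 and 2.09, a mean of 2.48 ± 0.53 (SD, n = 4, adjusted p = 0.00265). Every flask was above 2 for both genes, but MRT4 lost its call on the Ontario chips alone (adjusted p = 0.0645). TIF6, which keeps the subunits apart until release, averaged 1.49 ± 0.73 (SD, n = 4, adjusted p = 0.0156).

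The ribosomal proteins that RLP24, MRT4 and the A3 factor RLP7 resemble were not called higher. At t60 in wild type, against a fitted mean of 3.28 for RLP24, RPL24A had −0.523 and RPL24B −1.37 (adjusted p = 0.566 and 0.0583). RLP7, a paralog of ribosomal protein L7 at the second spacer, had 2.30, whereas RPL7A had −1.15 and RPL7B −0.907 (adjusted p = 0.0846 and 0.12). For MRT4 the fitted mean was 2.45 and for RPP0, the gene of P0, it was −1.24 (adjusted p = 0.166). SSF2, the near copy of SSF1, was called higher at 1.37 (adjusted p = 0.0185). Probes of near copies may share signal, which was not tested, although SSF1 and SSF2 correlated at r = 0.702 over 132 arrays that in part share a t0 sample.

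The 4 members with the smallest medians in the cold had, over the 7 strains, 0.0292 for NOP8, a nucleolar 60S factor, 0.464 for RRP8, 0.683 for the helicase MAK5 and 1.02 for the helicase SPB4. In wild type at t60, RRP8 had scores of −0.63, 1.05, 0.23 and 0.18, and MAK5 had 3.32, 1.41, 0.21 and 0.53. SPB4 had 1.95, 2.09, 1.03 and −0.41. Flasks fell on both sides of 0 for RRP8 and SPB4, and both GCAT flasks were above both Ontario flasks for MAK5 and SPB4. NOP8 was measured in 2 wild-type flasks at t60, both on GCAT chips, at 1.11 and 1.14. None of the 4 was called at any wild-type time.

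After return to 30 °C, at t90 in wild type, 18 of 52 members were called lower, against 2.19% of all features, with a median of −1.11. None was called higher, against 211 of 6177 features. At t120 NOP7 (−1.48; limma adjusted p = 0.0399) and CIC1 (−1.42; adjusted p = 0.0354) were the 2 members called lower, against 0.955% of all features, and the median was −0.639. Without flasks on GCAT chips 11 of 50 members were called lower at t90, against 1.18% of all features, and 0 at t120.

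The calls at t90 were spread over the roles. No helicase was called lower, against 1 of 4 methyltransferases and exonucleases, 9 of 18 early nucleolar factors, 3 of 6 A3 factors, 1 of 2 5S factors, 2 of 6 nucleoplasmic and export factors, 1 of 4 GTPases and 1 of 3 placeholders and release factors. The lowest was NOP13, an RNA-binding nucleolar protein, with scores of −2.01, −1.49, −3.62, −1.73 and −1.72 in flasks 0 to 4, a mean of −2.11 ± 0.86 (SD, n = 5, limma adjusted p = 0.0015). RLP7 had −1.99, −2.17, −3.12 and −1.03 in flasks 0, 2, 3 and 4, a mean of −2.08 ± 0.86 (SD, n = 4, adjusted p = 0.00179). All measured flasks were below −1 for both.

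REX4 had scores of −1.87, −1.92, −2.38, −3.01 and −0.38 at t90, a mean of −1.91 ± 0.97 (SD, n = 5, limma adjusted p = 0.0186). NIP7, a factor of 27S rRNA processing, had −2.13, −0.43, −2.16, −2.78 and −1.74, a mean of −1.85 ± 0.87 (SD, n = 5, adjusted p = 0.00111). NIP7 was low at t90 without having been called in the cold: at t60 its fitted mean was 0.670 (adjusted p = 0.22). MRT4 had −2.36, −1.23, −1.56, −2.42 and −1.34, a mean of −1.78 ± 0.57 (SD, n = 5, adjusted p = 0.0324).

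CIC1 had scores of −1.90, −1.63, −2.35, −1.39 and −1.06 at t90, a mean of −1.67 ± 0.49 (SD, n = 5, limma adjusted p = 0.0063). EBP2, a nucleolar factor of 25S maturation, had −1.58, −1.43, −2.03, −1.61 and −1.23, a mean of −1.58 ± 0.30 (SD, n = 5, adjusted p = 0.0169). The GTPase NUG1 had −2.17, −0.79, −3.32, −0.68 and −0.90, a mean of −1.57 ± 1.15 (SD, n = 5, adjusted p = 0.0337). Of the 8 members given for t90, EBP2 and CIC1 had the smallest SD between flasks and NUG1 the largest. On the Ontario chips alone CIC1 (adjusted p = 0.138), REX4 (0.0682), MRT4 (0.181) and NUG1 (0.116) lost their call at t90. Leaving out 1 of flasks 0, 2 or 3 ended the call of REX4, MRT4, EBP2 or NUG1 (adjusted p between 0.0533 and 0.246 where it was lost).

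**Figure D2:**
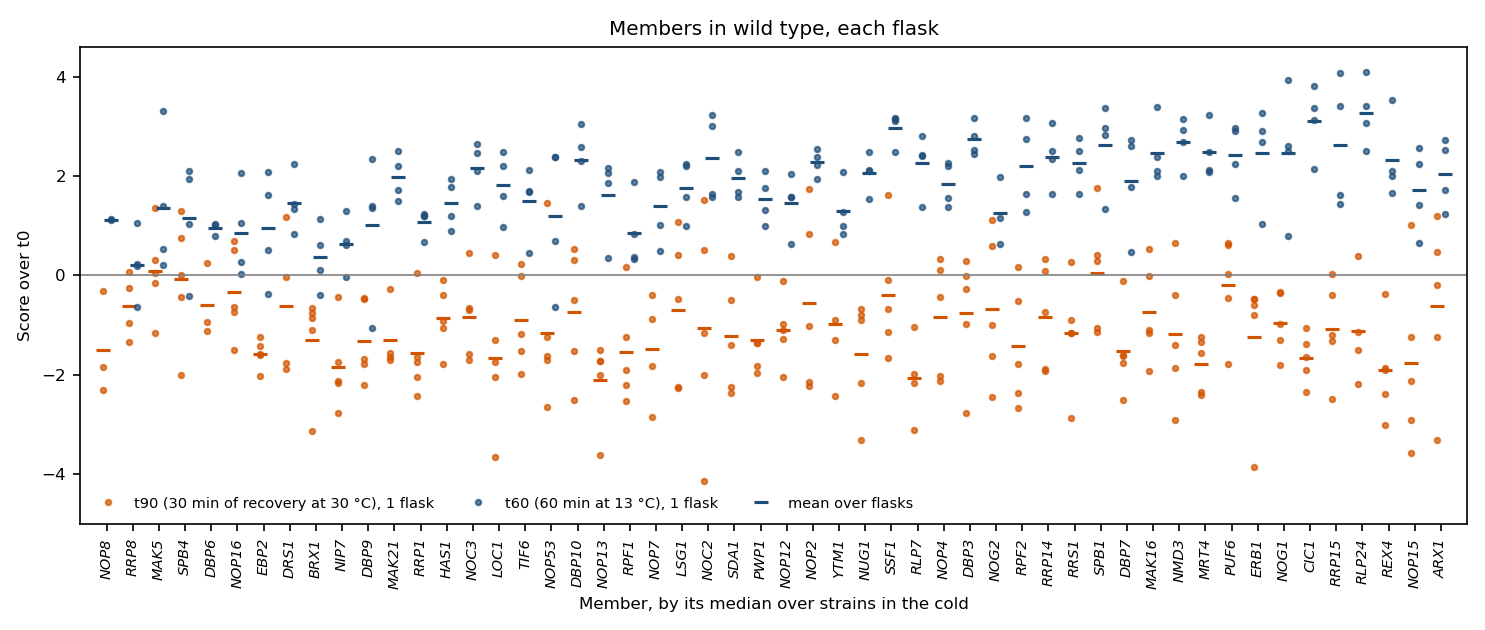
Scores over t0 (vertical axis) of each member in wild type at t90 (orange) and t60 (blue), 1 point per flask with a bar at the mean, with members ordered from left to right by their median over strains in the cold. For CIC1 every t90 flask is below −1 and every t60 flask above 2, while the flasks of the leftmost members lie near or on both sides of 0.

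Set directly against each other, t90 was lower than t60 for 47 of the 52 members in wild type, against 12.9% of all features, with a median difference of −2.89. The members not called were NOP8, NOP16, MAK5, SPB4 and RRP8. CIC1 differed by −4.70 (SE 0.49, limma adjusted p = 2.39e-07), RLP24 by −4.41 (adjusted p = 6.12e-05), RLP7 by −4.35 (adjusted p = 9.83e-07), REX4 by −4.33 (adjusted p = 2.59e-05) and MRT4 by −4.23 (adjusted p = 3.84e-05). All 6 A3 factors, both 5S factors, all 6 nucleoplasmic and export factors, all 4 GTPases and all 3 placeholders and release factors were called lower, as were 7 of 9 helicases and 16 of 18 early nucleolar factors. Between t90 and t120, 1 member, NIP7, was called higher at t120 (1.74; SE 0.41; adjusted p = 0.0383), against 0.421% of all features, and the median difference was 0.442. With the flask as a fixed block, 0 members were called between t120 and t90.

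Related genes outside the members were taken from textbook lists of the pathway. Their counts at t60 stand against 9.24% of all features called higher in wild type. In wild type at t60, 18 of 33 genes listed as other 60S factors were called higher, with a median of 1.37. The 2 smallest adjusted p on that list were for NSR1 (3.56, limma adjusted p = 1.18e-05) and the helicase DBP2 (4.29, adjusted p = 2.58e-05). NSR1, a nucleolin-like protein, is not specific to 60S assembly, so the list is broader than its name. Of the small subunit factors 25 of 61 were called higher (median 1.19), of the RNA polymerase I genes 4 of 13 (1.25), of the exosome genes 5 of 14 (1.13), and of the box C/D and H/ACA proteins 2 of 7 (1.08). Among 75 ribosomal proteins of the large subunit 0 were called higher and 4 lower, for example RPL17B at −1.46 (limma adjusted p = 0.00324). The 4 are a smaller share than that of all features, of which 401 of 6172 were called lower. The median of the 75 was −0.898, and 4 of the 75 fitted means were above 0. At an unadjusted limma p below 0.05 there were 27 of 75, against 1885 of 6172 features. At t30, 9 of 75 were called lower, a larger share than that of all features (351 of 6176). At t15, 0 of 75 were called lower (196 of 6172 features) and 1 higher. Whether the lists differ from the members was not tested.

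At t90 the same lists had 7 of 33, 11 of 61, 1 of 13, 0 of 14 and 2 of 7 genes called lower. Of all features tested, 2.19% were called lower at that time. DBP2 reached −5.40 (limma adjusted p = 1.25e-06), RRP36 of the small subunit pathway −2.08 (adjusted p = 0.0019) and the polymerase I subunit RPA43 −1.60 (adjusted p = 0.00211). Of the large subunit ribosomal proteins 0 of 75 were called in either direction at t90, and 6 had an unadjusted p below 0.05.

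In each deletion strain the member medians were above 0 at every cold time and below 0 at both recovery times. In delCIN5 the members called higher were 34 of 52 at t15, 20 of 51 at t30 and 36 of 52 at t60, against 7.70%, 3.89% and 6.93% of all features, with medians of 1.99, 1.52 and 1.95. At t90, 16 members were called lower (2.58% of all features), with a median of −1.36. At t120 the 1 member called lower was EBP2, at −2.28, −0.87, −1.74 and −2.62 in flasks 1 to 4 (limma adjusted p = 0.032; 0.243% of all features), and the median was −0.426.

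In delGLN3, 16 of 51 members were called higher at t15, 31 of 52 at t30 and 2 of 52 at t60, against 4.66%, 8.03% and 0.362% of all features, with medians of 1.89, 2.44 and 1.45. Without the 4 arrays, of which flask 2 at t60 is 1, 24 members were called at t60, against 6.28% of all features. At t90, 2 members were called lower (0.693% of all features; median −1.66), and 7 without the 4 arrays (2.05%). At t120, 1 was called lower, REX4 (−4.38; limma adjusted p = 0.0431; 0.132% of all features), and 2 without the 4 arrays (0.560%). The REX4 scores at t120 were −4.50, −0.12, −10.03 and −2.96 in flasks 1, 2, 4 and 5, so flask 4 stood far below the others.

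In delHAP4, 27 of 52 members were called higher at t15, 37 at t30 and 45 at t60, against 8.03%, 11.3% and 10.8% of all features, with medians of 1.89, 2.09 and 2.18. At t90, 1 of 51 was called lower (0.318% of all features; median −0.514), and 15 of 50 without the 4 arrays (1.95%), when the median was −1.68. At t120, NOP7 (−3.33; limma adjusted p = 0.0478) and EBP2 (−1.95; adjusted p = 0.0213) were called lower (1.19% of all features; median −0.842), and 7 members without the 4 arrays (2.42%). Only 3 flasks were available at each of these 2 times.

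In delHMO1, limma called 0 members at every time. The counts at an unadjusted p below 0.05 were 16 of 51 at t15, 26 of 52 at t30, 18 of 51 at t60, 0 of 51 at t90 and 1 of 52 at t120. Few features of any kind were called: 0.0164%, 0.0490% and 0.0659% higher in the cold, and 0.0329% and 0% lower at t90 and t120. The medians were 1.28, 1.46, 1.27, −0.227 and −0.343 in time order. Without the 4 arrays 20 members were called higher at t30 (2.94% of all features), 22 at t60 (3.11%) and 0 lower at t90. With the sign of flask 2 turned the medians were 0.497, 0.673, 0.121, −0.0827 and −0.313 in time order. With that of flask 4 turned they were 1.15, 0.954, 0.433, 0.216 and −0.0551, and 0 members were called at any time either way.

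In delSWI4, 42 of 52 members were called higher at t30 and 37 at t60, against 11.0% and 10.6% of all features, with medians of 1.75 and 1.65. At t90, 37 were called lower (7.25% of all features), the most of any strain, with a median of −1.75. At t120 the median was −0.438, and SPB4 was called lower (−1.35; limma adjusted p = 0.0201; 2.96% of all features). NOP8 was called higher at t120 (1.00; adjusted p = 0.0265; 3.98% of all features), the only member called above t0 in recovery in any strain. Its scores were 1.01, 1.38, 0.99 and 0.62 in flasks 1 to 4, all above 0. Each direction thus had 1 of 52 members called at t120, a smaller share than that of all features.

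In delZAP1, 30 of 52 members were called higher at t15, 40 at t30 and 39 at t60, against 7.41%, 8.30% and 9.19% of all features, with medians of 1.78, 2.32 and 2.19. At t90, 15 were called lower (2.04% of all features; median −1.16). At t120 limma called 0 lower (1.41% of all features; median −0.489), and 11 had an unadjusted p below 0.05.

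**Figure D3:**
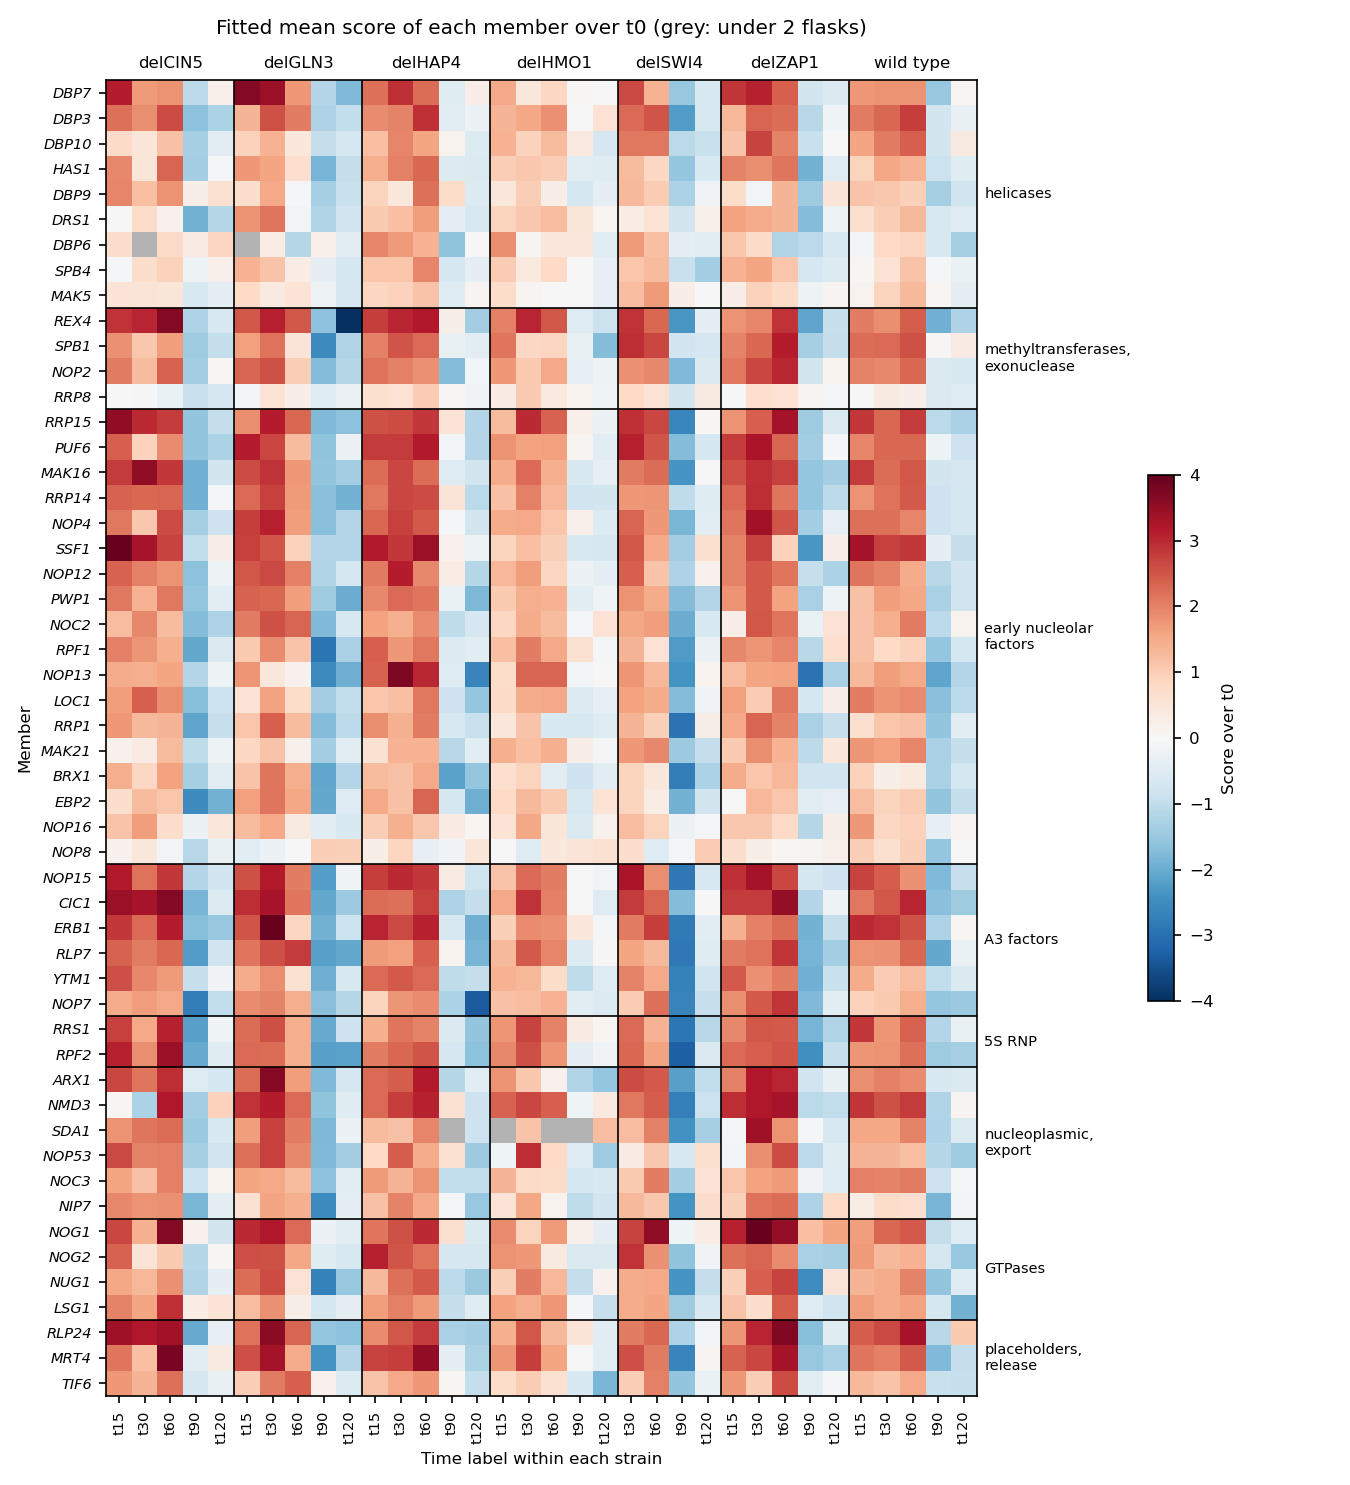
Fitted mean score over t0 of each member (rows, by role) at each time (columns, by strain), from blue (below t0) to red (above t0), with the colour limits at −4 and 4 and grey where under 2 flasks were measured. Cold columns are red and t90 columns blue for most rows.

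Counted over strains, 49 of the 52 members were called higher at t60 in at least 1 strain, against 20.4% of all features, 35 in at least 4 (4.68%) and 2, RLP7 and TIF6, in 6 (0.162%). These counts were 50 (21.8%), 37 (6.31%) and, in at least 6 strains, 21 (2.22%) without the 4 arrays. At t90, 42 were called lower in at least 1 strain (9.40% of all features) and 4 in 4 strains (0.502%): RPF1 and PWP1 of the early nucleolar factors, NOP7 and RPF2. With the 4 arrays left out they were 45 (10.2%) and 10 in at least 4 strains (1.00%). No member was called lower than t0 in the cold in any strain with or without the 4 arrays. Of all features, 10.2% at t15, 15.2% at t30 and 16.5% at t60 were called lower in at least 1 strain. Without the 4 arrays these shares were 11.4%, 16.3% and 18.0%.

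Set against the end of the cold, most members were called lower at t90 in 5 of the 7 strains with flask as a random block. In the others, delGLN3 and delHMO1, fewer were called, although the fitted difference was above 0 for only 2 of 52 and 2 of 51 members. The members called lower at t90 than at t60 were 44 in delCIN5 (10.0% of all features; median difference −3.48), 49 in delSWI4 (13.8%; −3.49) and 46 in delZAP1 (11.1%; −3.32). In delHAP4, 29 of 51 were called lower (4.89%; −2.73), and 47 of 50 without the 4 arrays (12.6%). With the flask as a fixed block it was 24 of 51 (5.04%) and with no block 14 of 51 (1.70%), neither of them most. In delGLN3, 13 were called lower (1.57%; −3.09), 41 without the 4 arrays (7.58%) and 6 with the flask as a fixed block (0.434%). In delHMO1, limma called 0 of 51 (0.0165%; −1.45), 18 had an unadjusted p below 0.05, and 35 were called without the 4 arrays (6.85%). With the sign of flask 2 or flask 4 of delHMO1 turned, its median difference was −0.193 or −0.245.

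Of the members, 5 were called lower at t90 than at t60 in 6 of the 7 strains, against 0.502% of all features: CIC1, RLP24, RPF1, NOC2, which escorts early particles, and DBP3. When the 4 arrays were left out, 41 members were called in at least 6 strains (4.05%) and 27 in all 7 (2.40%). NOP8 was called in none either way. CIC1 in delCIN5 had −1.22, −2.51, −3.16 and −0.50 at t90, against 3.99, 1.00, 4.51 and 5.22 at t60, a difference of −5.53 (SE 0.75, limma adjusted p = 2.79e-05). In delZAP1 it had −1.14, −2.11, −0.65 and −0.80 at t90, against 3.51, 2.39, 3.95 and 4.26 at t60, a difference of −4.70 (SE 0.74, adjusted p = 0.000118). The 2 times did not overlap in either strain.

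RLP24 in delZAP1 had −1.96, −0.65, −1.32 and −2.81 at t90, against 3.01, 3.35, 4.39 and 4.07 at t60, a difference of −5.39 (SE 0.67, limma adjusted p = 9.91e-06). In delHAP4 it had −1.91, −3.66 and 1.72 at t90 in flasks 2 to 4, against 2.92, 2.52, 1.65 and 4.09 at t60 in flasks 1 to 4, a difference of −4.10 (SE 0.95, adjusted p = 0.0132). Here the times overlapped through flask 4, whose t90 array is 1 of the 4 named above. In delHMO1 it had 1.49, −1.86, 3.08 and −0.61 at t90, against 4.04, −0.02, −1.68 and 2.88 at t60, and was not called (−0.782; SE 0.96; adjusted p = 0.88).

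**Figure D4:**
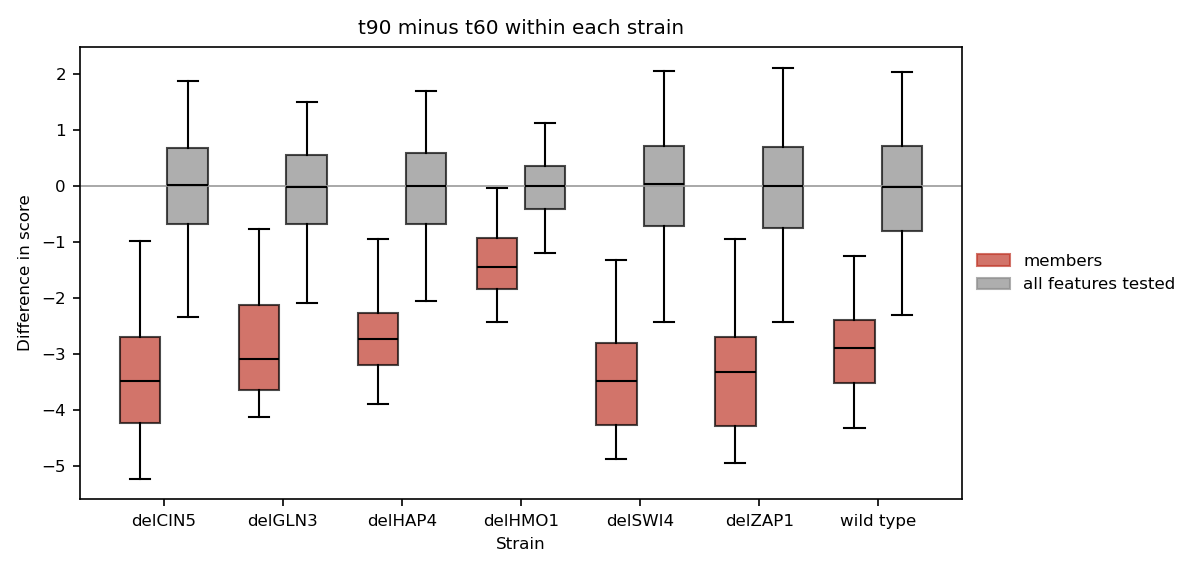
Fitted difference in score, t90 minus t60 (vertical axis), for the members (red) and all features tested (grey) in each strain. Boxes show the quartiles and median over genes and whiskers the 5th and 95th percentiles; the member medians lie between −3.49 and −1.45 and those of all features near 0.

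Whether a deletion changed the course was asked by comparing it with wild type. The cold was represented by t30 and t60 averaged, and recovery by t90 and t120 averaged. limma called 0 members in all 12 comparisons. In the cold, the median difference of the members was 0.186 in delCIN5 (0% of all features called; 5 of 51 members at an unadjusted p below 0.05), 0.0305 in delGLN3 (0.348%; 5 members) and 0.382 in delHAP4 (0.201%; 3 members). It was −0.356 in delHMO1 (0.0496%; 3 of 51 members), 0.00628 in delSWI4 (0.148%; 0 members) and 0.445 in delZAP1 (0.0818%; 4 members). In recovery the median difference was 0.0410 in delCIN5 (0.0649%; 4 members), −0.491 in delGLN3 (0.848%; 4 members) and 0.229 in delHAP4 (0.0342%; 0 of 51 members). It was 0.649 in delHMO1 (0.0990%; 3 of 51 members), −0.197 in delSWI4 (1.21%; 4 members) and 0.0496 in delZAP1 (0.296%; 1 member).

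Several of these medians depended on the doubted arrays. Without the 4 arrays the median difference was 0.557 in delGLN3 in the cold and −0.291 in delHAP4 in recovery, where its direction turned, and −0.0463 in the cold and 0.337 in recovery in delHMO1. With the sign of delHMO1 flask 2 turned it was −1.35 in the cold, where 3 of 51 members were then called (2.49% of all features), and 0.624 in recovery, where 1 of 51 was called, a smaller share than that of all features (4.41%). With flask 4 turned it was −1.02 in the cold and 0.968 in recovery, with 0 members called.

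The smallest adjusted p of any member was that of NOG1, a GTPase of nucleolar and nucleoplasmic particles, in delZAP1 in recovery. Its scores were 2.54, −0.40, 1.45 and 1.26 at t90 in delZAP1 flasks 2 to 5, against −1.30, −0.98, −1.80, −0.35 and −0.34 in wild-type flasks 0 to 4. At t120 they were 2.81, 0.45, 1.58 and 1.43 in delZAP1, against −1.17, 1.53, −0.93, −0.77 and −1.19 in wild type. The difference was 2.12 (SE 0.58, limma adjusted p = 0.0927). At t90, 3 of the 4 delZAP1 flasks lay above every wild-type flask, and flask 3 overlapped with wild type. At t120 all 4 lay above every wild-type flask but flask 1.

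NIP7 in the cold differed by 1.51 in delZAP1 (SE 0.48, limma adjusted p = 0.365). It had 2.53, 1.55, 1.19 and 3.47 at t30 and 2.47, 1.66, 1.63 and 3.21 at t60 in delZAP1, against 0.56, 0.26, 1.08, 0.95 and 0.87 at t30 and −0.03, 0.69, 1.29 and 0.61 at t60 in wild type. The groups did not overlap at either time. In delCIN5 the difference for NIP7 was 1.11 (SE 0.46, adjusted p = 0.598).

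BRX1, a Brix-domain factor of early particles, differed by 1.03 in delHAP4 in the cold (SE 0.41, limma adjusted p = 0.421). It had 1.62, 0.91, 1.06 and 1.09 at t30 and 1.70, 1.46, 1.70 and 1.21 at t60 in delHAP4, against 0.07, 0.09, 0.46, 0.10 and 0.43 at t30 and 0.10, 1.14, 0.62 and −0.39 at t60 in wild type, without overlap. In delGLN3 BRX1 differed by 1.48 (SE 0.62, adjusted p = 0.385).

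RRS1 in recovery differed by −1.27 in delSWI4 (SE 0.46, limma adjusted p = 0.20). It had −2.53, −3.57, −2.39 and −3.10 at t90 in delSWI4, against −1.15, −0.90, −2.87, −1.16 and 0.27 in wild type, and −1.85, −1.35, −0.19 and −1.01 at t120 in delSWI4, against −0.35, 0.85, −0.34, −1.06 and −0.53 in wild type. The groups overlapped at both times, at t90 through wild-type flask 2. NMD3 differed there by −1.25 (SE 0.47, adjusted p = 0.218). SPB1 in delGLN3 in recovery differed by −2.08 (SE 0.77, adjusted p = 0.25), with −2.12, −3.31, −3.48 and −1.49 at t90 in delGLN3, against −1.05, 1.76, −1.14, 0.29 and 0.42 in wild type. At that time every delGLN3 flask was below every wild-type flask. At t120 the groups overlapped, with 1.58, −1.62, −2.87 and −1.70 in delGLN3 flasks 1, 2, 4 and 5, against −1.45, 1.91, −0.21, 0.51 and 0.84 in wild type.

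The other members with the 2 smallest adjusted p in a comparison were as follows. The helicase DBP10 differed in the cold by −1.41 in delCIN5 (limma adjusted p = 0.598) and by −1.32 in delGLN3 (adjusted p = 0.345), NOP13 by 1.77 in delHAP4 (adjusted p = 0.43) and NOP7 by 1.40 in delZAP1 (adjusted p = 0.46). SSF1 differed by −1.67 (adjusted p = 0.604) and NOC3 by −1.27 (adjusted p = 0.714) in delHMO1 in the cold, and NOG2 by 1.02 (adjusted p = 0.757) and DBP6 by 0.634 (adjusted p = 0.781) in delSWI4.

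In recovery DBP6 differed by 1.57 (limma adjusted p = 0.45) and LSG1 by 1.72 (adjusted p = 0.471) in delCIN5, RLP24 by −1.56 in delGLN3 (adjusted p = 0.307) and by −1.30 in delHAP4 (adjusted p = 0.715), and BRX1 by −0.836 in delHAP4 (adjusted p = 0.686). MAK21 differed by 1.24 (adjusted p = 0.38) and RPF1 by 1.39 (adjusted p = 0.399) in delHMO1, and SPB1 by −1.32 in delZAP1 (adjusted p = 0.52). A p that misses the threshold does not show that a member behaved alike in 2 strains, and standard errors near 0.5 left room for sizeable differences. The 6 cold comparisons share their wild-type arrays, as do the 6 recovery comparisons.

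**Figure D5:**
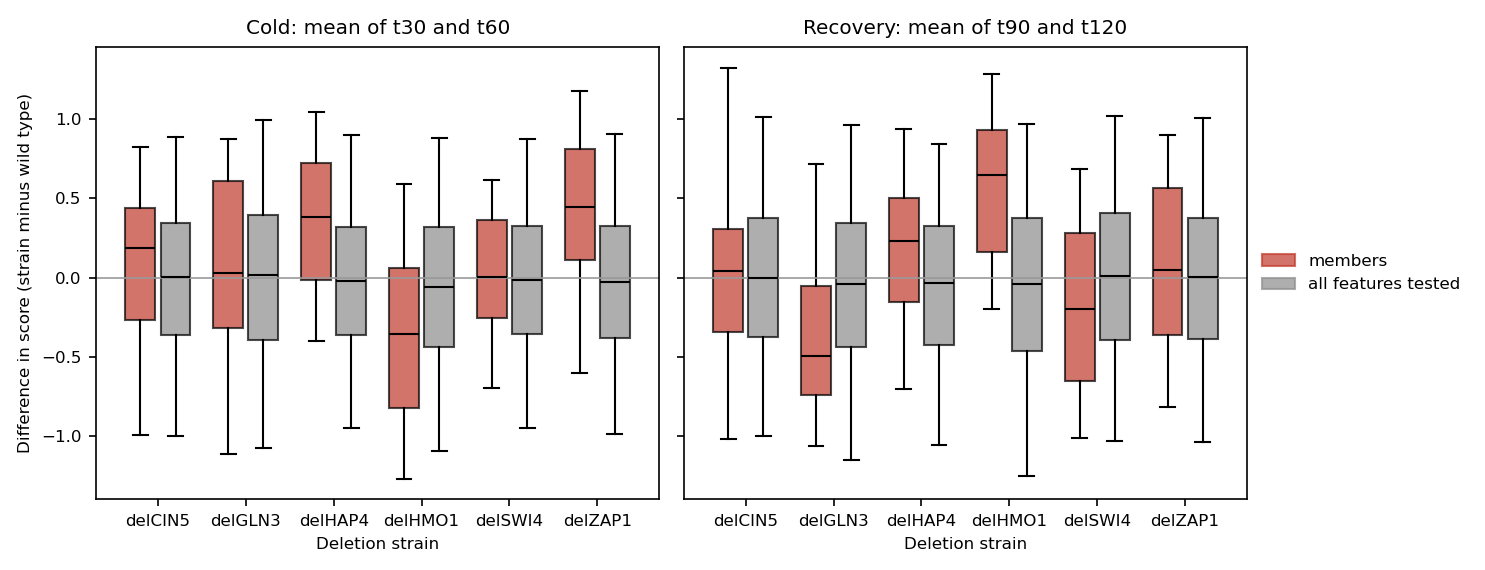
Fitted difference in score, deletion strain minus wild type (vertical axis), for the members (red) and all features tested (grey) in the cold (left) and in recovery (right). Boxes show the quartiles and median over genes and whiskers the 5th and 95th percentiles; the member medians range from −0.356 to 0.445 in the cold and from −0.491 to 0.649 in recovery.

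Most members rose and fell together over the cold and recovery arrays pooled. Over up to 137 arrays, which in part share a t0 sample, the Pearson correlation of a member with the median of the others had a middle value of 0.808 and was above 0.5 for 49 of 52 (0.816 and again 49 without the 4 arrays). For 5980 features outside the members, the correlation with the member median had a middle value of −0.0322 and a 95th percentile of 0.68. Of these features, 113 passed the members' middle value. With both phases pooled, any gene high in the cold and low in recovery scores high here. The lowest were NOP8 at 0.007, DBP6 at 0.348 and RRP8 at 0.461, and the highest was RPF2 at 0.934. For the order of 51 or 52 members, each deletion strain was set against wild type. Here the cold was t30 and t60 averaged, without t15, and recovery was t90 and t120 averaged. In the 5 strains other than delHMO1, the Spearman correlation in the cold ran from 0.638 to 0.843, against 0.676 to 0.779 over all features. In recovery it ran from 0.128 to 0.416, against 0.353 to 0.418 over all features. In delHMO1 it was 0.622 in the cold and 0.192 in recovery with every array, 0.578 and 0.348 without the 4 arrays, 0.305 and −0.128 with flask 2 turned, and 0.411 and 0.175 with flask 4 turned. For delGLN3 in the cold it was 0.695 without the 4 arrays, and for delHAP4 in recovery 0.363. These values are descriptions over genes, which are not independent.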

How the data were processed

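Log ratios of two-colour arrays were deposited by the authors as scores, already normalized within arrays and scaled to a scaled median absolute deviation of 0.9971 to 1.0028 per array. The submitters' processing notes name limma without a version. No further normalization was applied, and 3.946% of values (2.344% of member values) were missing and not imputed. Each strain was fitted with a mean per time, and each deletion strain with wild type with a mean per strain and time (limma 3.58.1 and statmod 1.5.0 in R 4.3.3; Python 3.11.15, pandas 2.3.3, numpy 2.4.6, matplotlib 3.10.9). Flask was a random block (duplicateCorrelation, 0.105 to 0.395), moderation was by empirical Bayes, and adjustment was by Benjamini-Hochberg over all features with at least 2 flasks. Flask numbers within a strain pair arrays that share a t0 sample: deviations of same-flask arrays had a median r of 0.307 (234 of 250 pairs above 0), those of different flasks −0.0965. Of 137 pairs of replicate arrays with opposite dyes, 120 correlated above 0. The scripts were tested on simulated data. The number of arrays limits the precision.

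The members and lists were chosen with earlier results of these data known. Named were the 8 members with the highest mean at t60 and the 8 with the lowest at t90 in wild type that were called with 1 sign in every flask, the 2 with the smallest adjusted p per strain comparison, and the 4 with the smallest cold median. Values per flask are given for these, except that of the strain comparisons only 5 are shown so and the others by their fitted difference; members with calls at t120 and those called in most strains were added after their values were seen. Names of 5674 of 6178 features came from a gene table of assembly R64. Alternatives were no block, fixed blocks, dye and coating terms, recentring and rescaling, fully measured features, robust moderation, a stricter threshold, Ontario chips, single flasks left out, the 4 arrays left out and turned signs.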

Additional observations from a re-analysis of the deposited data

Results flagged for a closer look

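In each of 48 groups of 4 or 5 arrays, the gap of the highest or lowest array to its nearest neighbour was divided by the range of the whole group. In 5 groups this share passed Dixon's critical value, which chance alone passes in about 1 in 20 groups. The 4 arrays that resembled the other phase were each the highest or lowest of their group, but the gap stayed below that value in 3 groups and the fourth, of 3 arrays, was not examined. The median of the members was 0.2914 in 1 delCIN5 flask at t120, the only recovery value above 0 outside those 4 arrays. It was −2.448 in 1 delGLN3 flask at t90 and −0.545 in 1 delHMO1 flask at t120, each below its group. SSF1 was lowest at 2.476 in wild-type flask 0 at t60, where the other flasks had 3.11 to 3.17. NOP13 was lowest at −3.616 in wild-type flask 2 at t90, where the others had −2.01 to −1.49. No cause was tested.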

How the results depend on the processing

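Of the member medians under alternatives, 694 differed from the reported one by less than the spread between replicates, sign changes of small values included, and 7 moved further. Another 2 turned in sign, the delHAP4 median at t90 without flask 2 (0.124) and without flask 3 (0.284). Of the counts 594 stayed within 1.5 times of the reported one and 130 did not. Recentring, rescaling and robust moderation changed no count past that bound. The promoter motifs that had been planned were not run because no promoter sequences were used here. The number of flasks limits which members can be called.

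Brackets in this paragraph hold the count over all features. At adjusted p below 0.01, members higher were 19 at t15 in wild type (217 of 6172). In delCIN5 they were 21, 10 and 21 at t15, t30 and t60 (233 of 6143, 96 of 6139 and 166 of 6165). In delGLN3 they were 3, 13 and 1 (66 of 6056, 210 of 6100 and 3 of 6073). In delHAP4 they were 9, 15 and 20 (232 of 6031, 310 of 5990 and 231 of 6055). Members lower were 5 at t90 (48 of 6177) and 0 at t120 (21 of 6177) in wild type, and 6 (63 of 6166) and 0 (7 of 6173) in delCIN5. They were 0 (7 of 6060) and 0 (0 of 6072) in delGLN3, and 0 (6 of 5977) and 0 (10 of 5962) in delHAP4. At t90 in delZAP1 they were 4 (44 of 6142), and at t120 in delSWI4 they were 0 (67 of 6073). For t90 minus t60, 1 was called in delGLN3 (1 of 5994) and 7 in delHAP4 (41 of 5930), and for t120 minus t90, 0 in wild type (16 of 6176). On Ontario chips alone 11 of 50 were lower at t90 (72 of 6091) and 0 at t120 (8 of 6092) in wild type. With features measured on every array, members higher were 19 at t15 (344 of 3302) and 21 at t60 (316 of 3302) in delCIN5. In delGLN3 they were 9 at t15 (200 of 3955) and 1 at t60 (14 of 3955). Members lower were then 1 at t120 in wild type (42 of 4124), 1 at t90 in delGLN3 (31 of 3955) and 0 at t90 in delHAP4 (17 of 5231). At t120 in delSWI4 they were 3 of 47 (186 of 5065). A dye term gave 5 (278 of 6073) and a coating term 3 (211 of 6073) of 52 members lower at t120 in delSWI4.

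Without the 4 arrays, members higher were 24 at t60 in delGLN3 and 20 at t30 and 22 at t60 in delHMO1. Members lower were 7 at t90 and 2 at t120 in delGLN3 and 15 at t90 and 7 at t120 in delHAP4, and for t90 minus t60 they were 41 in delGLN3, 47 in delHAP4 and 35 in delHMO1. The shares of all features for these counts are given with the strains above. With delHMO1 flask 2 turned, its medians were 0.497 at t15 and 0.673 at t30, the median of delHMO1 minus wild type in the cold was −1.35, 3 members were called there (2.49% of all features), among them SSF1 (−2.48, limma adjusted p = 0.0447), and 1 was called in recovery (4.41% of all features). With flask 4 turned, the medians were 0.954 at t30 and −0.0551 at t120, and −1.02 against wild type in the cold. At t120 alone the median of delSWI4 minus wild type was 0.360.

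With no replicate block, t90 minus t60 had 5 members lower in delGLN3 and 14 in delHAP4, t120 in delSWI4 had 2 lower, t120 minus t90 in wild type had 0 higher, and delZAP1 minus wild type in recovery had 1 called (1.23% of all features), NOG1 (2.12, limma adjusted p = 0.024). With flask as a fixed replicate block, t90 minus t60 in delGLN3 had 6 lower (0.434% of all features). For t120 minus t90 in wild type it had 0 called (44 of 6176 features). Flask numbers of different strains share only a number. As a fixed replicate block across strains they gave 2 members in delSWI4 minus wild type in recovery (RRS1, limma adjusted p = 0.0211, and NMD3, 0.0265), against 3.91% of all features, and 2 in delZAP1 minus wild type in recovery (NOG1 among them, 0.0307), against 3.38%.

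Leaving out 1 flask at a time gave, in wild type, 18 to 30 members higher at t15, 5 to 18 lower at t90, 0 to 1 at t120 and 0 to 1 higher at t120 minus t90. In delCIN5 it gave 16 to 34, 8 to 24 and 12 to 35 higher in the cold, 5 to 11 lower at t90 and 0 to 1 at t120. In delGLN3 it gave 0 to 18, 10 to 35 and 0 to 26 higher in the cold, 0 to 2 lower at t90, 0 to 1 at t120 and 0 to 35 for t90 minus t60. In delHAP4 it gave 6 to 31, 21 to 36 and 23 to 40 higher in the cold, 0 to 5 lower at t90, 0 to 3 at t120 and 0 to 47 for t90 minus t60, with a t90 median of −1.62 to 0.284. In delHMO1 it gave 0 to 11 higher at t60 and 0 to 37 lower for t90 minus t60, in delSWI4 0 to 2 lower at t120, and in delZAP1 15 to 25 higher at t15 and 2 to 14 lower at t90. The counts over all features moved as well, so these ranges do not describe the members alone. In wild type without flask 2, the 18 members at t15 stood beside 218 of 6114 features and the 5 at t90 beside 52 of 6173. In delCIN5 at t60 the 12 without flask 4 stood beside 93 of 6093, and in delZAP1 at t90 the 2 without flask 3 beside 34 of 5989. For example, at t60 in delGLN3 the 0 members without flask 1 stood beside 0 of 5971 features. The 26 without flask 2 stood beside 365 of 5985. For t90 minus t60 in delHAP4, the 0 without flask 2 stood beside 2 of 5751 features, and the 47 without flask 4 beside 662 of 5794. The cause was not tested.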

Other observations

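Outside the members, the features whose scores followed the member median most closely over the arrays were NSR1 (r = 0.954, 136 arrays), IMP4 (0.931, 136 arrays), TRM11 (0.929, 137 arrays), the open reading frame YGR160W (0.929, 137 arrays) and IZH1 (0.921, 135 arrays). NSR1 encodes a nucleolin-like protein and IMP4 a small subunit factor, TRM11 a tRNA methyltransferase subunit and IZH1 a membrane protein linked to zinc. IZH1 had a median score of 4.99 in the cold and −4.83 in recovery. The features that ran most strongly against the members were COX5B (r = −0.879, 120 arrays), a subunit of cytochrome c oxidase, BXI1 (−0.86), NNR1 and SDP1 (both −0.855) and SAP4 (−0.851). The arrays of a flask share a t0 sample. YGR160W is named as the files give it, and its systematic name follows that of NSR1 (YGR159C). Its medians were 3.77 in the cold and −1.59 in recovery, against 3.59 and −1.49 for NSR1. The 2 may not be separate signals, which was not tested.

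Among the 50 features most like the member median, 8 were listed as other 60S factors, NSR1 among them, and 14 as small subunit factors. Another 1 was a box C/D or H/ACA protein and 1 an RNA polymerase I gene, while 0 were exosome genes or ribosomal proteins of the large subunit. In the gene order of assembly R64, no 2 members are neighbours. SSF1 lies divergent from RRP3 of the small subunit pathway, NMD3 follows DBP8 on the same strand and PWP1 lies beside NOP56. NOG2 overlaps a small nucleolar RNA gene, so its probe may not tell them apart, which was not tested.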
